A study of Homo sapiens with 15 samples.

Results

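RNA sequencing of LNCaP cells carrying a hairpin against JARID2 was compared with that of LNCaP cells carrying the control vector. LNCaP is an established human prostate cancer line of luminal, androgen-responsive character. Of the 15 libraries of the study, 6 enter this comparison: 3 named shJarid2 and 3 named pLKO. The shJarid2 cells had been infected with lentivirus that carries a short hairpin RNA against JARID2, and the pLKO cells with the control lentivirus. All cells share the wild-type genotype label, the serum-containing RPMI medium and the 4 to 5 days of infection. The other 9 libraries, 3 each of shsuz12, shPALI1 and shG9a, carry hairpins against SUZ12, PALI1 and G9a. The labels give 1 hairpin name per target, so an effect of lower JARID2 and an effect of that hairpin sequence on other RNAs cannot be told apart. They also do not say whether replicates came from separate cultures, so that a p value speaks of the variation among libraries, and this may be technical only.

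JARID2 is an accessory subunit of Polycomb repressive complex 2 (PRC2), which methylates lysine 27 of histone H3. The core of the complex is formed by EZH2 or EZH1 with SUZ12, EED and the histone-binding RBBP4 or RBBP7. JARID2 and AEBP2 together define the form called PRC2.2, and PHF1, MTF2 and PHF19 define the form called PRC2.1. PRC2 is known for keeping developmental genes silent at CpG-rich promoters, and EZH2 is known for its high level in advanced prostate cancer. The comparison asks which genes change in a prostate cancer line when the PRC2.2 subunit is lowered.

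Expression was given as RPKM, reads scaled to gene length and library depth, so levels can be set beside each other between genes. A gene entered the test when its RPKM was at least 1 in at least 3 of the 6 libraries, which 11871 of 26443 genes with values did. Differences are on the scale of log2(RPKM + 1), where a change of a low gene is smaller than its ratio of RPKM. They were tested with limma, and a gene passed at a Benjamini-Hochberg adjusted p under 0.05. Depth, recovered from the steps that single reads leave in the values, was 15.8, 14.7 and 12.5 M reads in shJarid2 and 12.4, 15.9 and 11.7 M in pLKO. Replicate 3 of shJarid2 stood apart from its group. Across genes its values correlated with replicates 1 and 2 at r = 0.973 and 0.977, against 0.992 between those, and its sum of RPKM was the highest of the 15 libraries at 318754. Every count given first below was therefore computed again without it.

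JARID2 itself, on chromosome 6 from 15246296 to 15522040 (GRCh38, plus strand), read 1.70, 1.72 and 1.32 RPKM in shJarid2 and 8.79, 8.18 and 8.90 RPKM in pLKO. The groups did not overlap, and the hairpin libraries held 18.3% of the control level (log2 change -1.90 ± 0.11 SE, limma adjusted p = 2.89e-05).

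With limma, 2220 genes rose and 2517 fell under shJarid2. This is 39.9% of the genes tested, 18.7% in the upward and 21.2% in the downward direction. Changes of at least 2-fold were made by 391 genes that rose (3.29%) and 331 that fell (2.79%). In 52.5% of the genes no shJarid2 library fell inside the pLKO range or the reverse, and over all genes the changes had a median of -0.03. Without shJarid2 replicate 3 the counts were 2803 higher (23.6%) and 3311 lower (27.9%). They included 2169 of the genes that rose and 2457 of those that fell in the full comparison. A call in each of the 6 fits that left out 1 library was kept by 1418 higher and 1518 lower genes, and without pLKO replicate 2 the falls numbered 1667.

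The 4 promoters printed here belong to the genes with the largest changes each way that have an entry in the RefSeq promoter table (GRCh38.p14). Each runs from 250 bases before to 50 bases after the start of the gene, 5′ to 3′ on the strand of the gene. They are shown because PRC2 is known to act at CpG-rich promoters, and capitals mark each CpG (the letters CG, which read the same on both strands).
PLA2G2A, chr1:19979610-19979909, minus strand: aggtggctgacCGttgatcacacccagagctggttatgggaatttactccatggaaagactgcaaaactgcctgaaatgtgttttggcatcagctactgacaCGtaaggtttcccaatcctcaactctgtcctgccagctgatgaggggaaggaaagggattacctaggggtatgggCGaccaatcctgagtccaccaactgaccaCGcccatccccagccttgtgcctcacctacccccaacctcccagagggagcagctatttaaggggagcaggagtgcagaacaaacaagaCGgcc
TRPM8, chr2:233917123-233917422, plus strand: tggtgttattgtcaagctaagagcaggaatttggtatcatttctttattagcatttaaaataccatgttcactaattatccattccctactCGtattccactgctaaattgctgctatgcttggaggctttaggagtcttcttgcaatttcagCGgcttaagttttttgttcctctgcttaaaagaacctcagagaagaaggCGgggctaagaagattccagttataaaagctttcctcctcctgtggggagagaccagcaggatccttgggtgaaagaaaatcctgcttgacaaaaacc
ATP1B1, chr1:169106440-169106739, plus strand: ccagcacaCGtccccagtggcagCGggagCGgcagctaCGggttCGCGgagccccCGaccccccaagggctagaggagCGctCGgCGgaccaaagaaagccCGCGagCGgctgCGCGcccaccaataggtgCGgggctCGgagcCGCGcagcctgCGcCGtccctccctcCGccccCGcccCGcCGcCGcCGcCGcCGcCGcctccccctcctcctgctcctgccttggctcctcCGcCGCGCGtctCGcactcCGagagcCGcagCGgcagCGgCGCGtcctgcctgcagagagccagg
LMNB1, chr5:126776373-126776672, plus strand: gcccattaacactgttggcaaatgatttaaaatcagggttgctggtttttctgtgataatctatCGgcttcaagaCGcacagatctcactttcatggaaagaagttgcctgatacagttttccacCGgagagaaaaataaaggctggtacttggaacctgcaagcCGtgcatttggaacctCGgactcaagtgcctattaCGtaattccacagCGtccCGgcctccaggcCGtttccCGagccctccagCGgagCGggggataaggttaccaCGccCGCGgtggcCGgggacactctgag
The promoters of the rising genes PLA2G2A and TRPM8 held 5 and 3 CpG. Those of the falling genes ATP1B1 and LMNB1 held 41 and 16. The median was 27 over the promoters of the 9332 tested genes that matched, and 14 over all 35116 promoters of the table, of which 96.04% held at least 1 CpG. The promoter table matched 78.6% of the genes tested, so CpG content was not tested between sets of genes. Among matched genes with changes of at least 2-fold, the median was 24 in 295 that rose and 28 in 213 that fell. At least 10 CpG were held by 74.2% and 89.7% of these, and by 90.8% of all matched genes. The 4 promoters shown are therefore no measure of the sets.

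The largest rise was that of PLA2G2A, which encodes a secreted phospholipase A2 that releases fatty acids from membrane phospholipids. Its libraries read 292, 291 and 459 RPKM in shJarid2 and 18.03, 17.4 and 12.3 RPKM in pLKO. The groups lay far apart, with replicate 3 of shJarid2 the highest (log2 change 4.35 ± 0.21 SE, limma adjusted p = 2.57e-05). CAMK2N1, which encodes an inhibitor of the kinase CaMKII, read 305, 322 and 387 RPKM in shJarid2 and 37.1, 32.8 and 28.1 RPKM in pLKO (log2 change 3.33). PLA2G2F, another secreted phospholipase gene, read 8.55, 9.55 and 13.1 RPKM in shJarid2, against 0.119, 0.3002 and 0.0947 RPKM in pLKO (log2 change 3.27). In pLKO this gene was close to silent in each library, and in shJarid2 it was expressed in each.

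These 3 genes, of the 4 largest rises, lie in 1 stretch of chromosome 1, a place that was noticed after the values had been seen. Between the start of PLA2G2E and the end of CAMK2N1 (19920009 to 20486220, 566 kb in GRCh38) the table lists 11 genes, of which 5 passed the filter, and those 5 were higher, where 18.7% of all genes tested were. The stretch was drawn around these genes after their values were known, and 3 of the 5 passed the filter through shJarid2 alone, so the count is a description and nothing is read from it. The remaining members are PLA2G5 and VWA5B1. PLA2G5, also a secreted phospholipase gene, read 2.602, 2.08 and 3.35 RPKM in shJarid2 and 0.769, 0.762 and 0.815 RPKM in pLKO (log2 change 1.03, limma adjusted p = 0.000796). VWA5B1 read 2.39, 1.69 and 1.18 RPKM in shJarid2 and 0.0181, 0.0982 and 0.0767 RPKM in pLKO (log2 change 1.35, limma adjusted p = 0.000473). In both genes the lowest shJarid2 library was above the highest of pLKO. Among those below the filter, UBXN10 read 0.6004, 0.4998 and 0.446 RPKM in shJarid2 and was listed at 0 in the 3 pLKO libraries.

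The borders were set at the chosen genes, so values of the neighbours are a description too. The 3 genes tested in the 500 kb before it, MINOS1, TMCO4 and OTUD3, had log2 changes of 0.23, 0.22 and 0.14 and did not pass (limma adjusted p = 0.276, 0.153 and 0.422). Of the 5 tested in the 500 kb after it, PINK1 rose by 0.41 (limma adjusted p = 0.0442) and the other changes lay between -0.29 in DDOST and 0.09 in HP1BP3. PINK1 overlaps an antisense gene, PINK1-AS, and strand is not stated for the counting, so that their reads cannot be told apart, and its call was kept in 1 of the 6 fits that left out a library. The 5 rises passed as well without shJarid2 replicate 3, and there the log2 changes of PLA2G2A, PLA2G2F and CAMK2N1 were 4.13, 3.10 and 3.23. The genes that passed the filter through shJarid2 alone, which had to be higher, are PLA2G2F, PLA2G5 and VWA5B1.

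**Figure D1:**
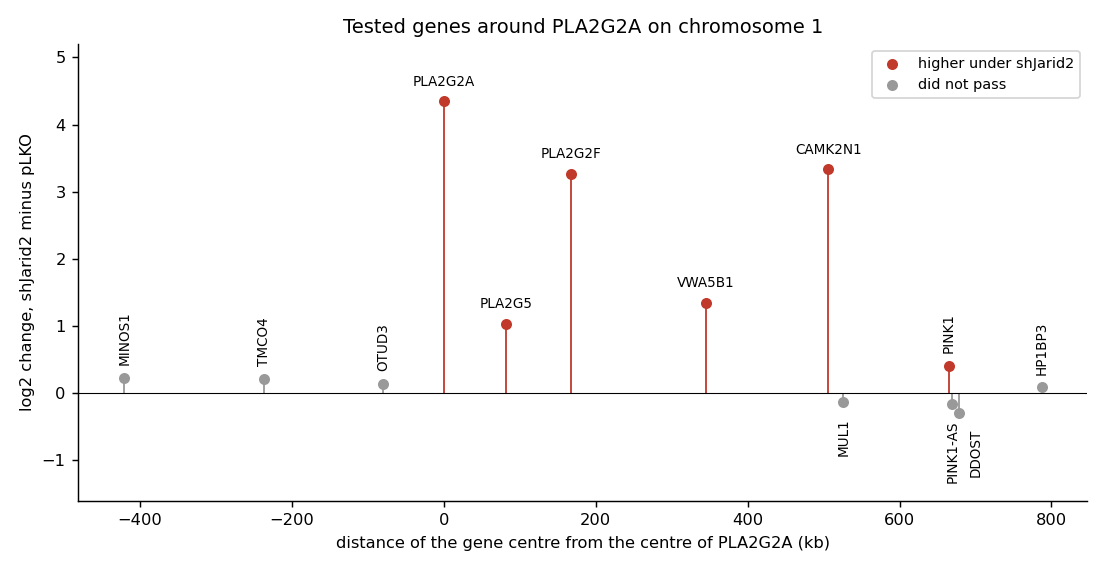
Log2 change, shJarid2 minus pLKO, of the genes tested around PLA2G2A, against the distance between gene centres in kb; red points passed and grey points did not. The 5 genes from PLA2G2A to CAMK2N1, around which the stretch was drawn, lie between 1.03 and 4.35, and the neighbours on either side lie between -0.29 and 0.41.

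Genes known from prostate and other epithelia were among the 15 largest rises. TRPM8, the cold-sensing calcium channel that prostate epithelium expresses under androgen control, read 75.8, 73.9 and 59.6 RPKM in shJarid2 and 5.43, 6.39 and 5.74 RPKM in pLKO (log2 change 3.36 ± 0.12 SE, limma adjusted p = 1.56e-05). KRT19, a keratin of simple epithelia, read 19.3, 21.1 and 25.4 RPKM in shJarid2 and 3.14, 2.603 and 2.39 RPKM in pLKO (log2 change 2.62). OR51E1, an olfactory receptor known from prostate, rose by 2.46, and LRRC26, an auxiliary subunit of the BK potassium channel, by 2.32. Rises of 2.50 in CRISP3, a secreted protein gene known for its level in prostate tumours, and of 2.27 in CLU, which encodes the chaperone clusterin, belong here as well.

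Metabolic enzymes and regulators were there as well. THRSP, a regulator of fatty acid synthesis, read 7.12, 8.36 and 9.12 RPKM in shJarid2 and 0.617, 0.692 and 0.291 RPKM in pLKO (log2 change 2.59). QPRT, which makes a precursor of NAD from quinolinate, read 5.37, 5.34 and 6.202 RPKM in shJarid2 and 0.521, 0.202 and 0.0552 RPKM in pLKO (2.41). Both genes passed the filter through shJarid2 alone, so that they had to be higher. Other large rises were in DYNLRB1, a dynein light chain (2.63), VSIG10L (2.52) and GPNMB, a transmembrane glycoprotein gene (2.41).

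The largest fall was that of ATP1B1, the beta subunit of the sodium pump. Its libraries read 58.0, 50.1 and 57.2 RPKM in shJarid2 and 342, 379 and 343 RPKM in pLKO, which leaves 15.6% of the control level (log2 change -2.66 ± 0.11 SE, limma adjusted p = 1.83e-05). LMNB1, which encodes lamin B1 of the nuclear lamina, read 10.9, 9.99 and 8.57 RPKM in shJarid2 and 54.3, 52.6 and 43.8 RPKM in pLKO (log2 change -2.24). AK4, a mitochondrial adenylate kinase, read 2.99, 1.79 and 2.07 RPKM in shJarid2 and 13.9, 15.4 and 13.5 RPKM in pLKO (-2.24). Groups that did not overlap were a condition for naming the largest changes, so nothing is read from that.

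The remaining falls were in genes of varied roles. USP22, the deubiquitinase of the SAGA complex, fell by 2.14, to 21.5, 18.98 and 17.6 RPKM in shJarid2 against 96.3, 86.1 and 82.6 RPKM in pLKO. TDG, the thymine DNA glycosylase that takes part in active DNA demethylation, fell by 2.11, to 3.33, 3.31 and 3.54 RPKM in shJarid2 against 17.4, 19.2 and 17.4 RPKM in pLKO. The transferrin receptor gene TFRC fell by 2.101, and INSIG1, which holds the sterol sensor SCAP in the endoplasmic reticulum, by 2.01. CCNA2, which encodes cyclin A2, fell by 1.89 and CDC20, an activator of the anaphase-promoting complex, by 1.85. The others were TOMM5, of the mitochondrial import pore (-2.12), TMEM245 (-2.07), the proline-catabolism gene ALDH4A1 (-2.02), the planar polarity cadherin CELSR1 (-1.87) and APLP1, a relative of the amyloid precursor (-1.83). The genes named here for their large rises and falls passed in every setting that tested them, the fit without shJarid2 replicate 3 among them. A stricter filter on mean RPKM left QPRT out.

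**Figure D2:**
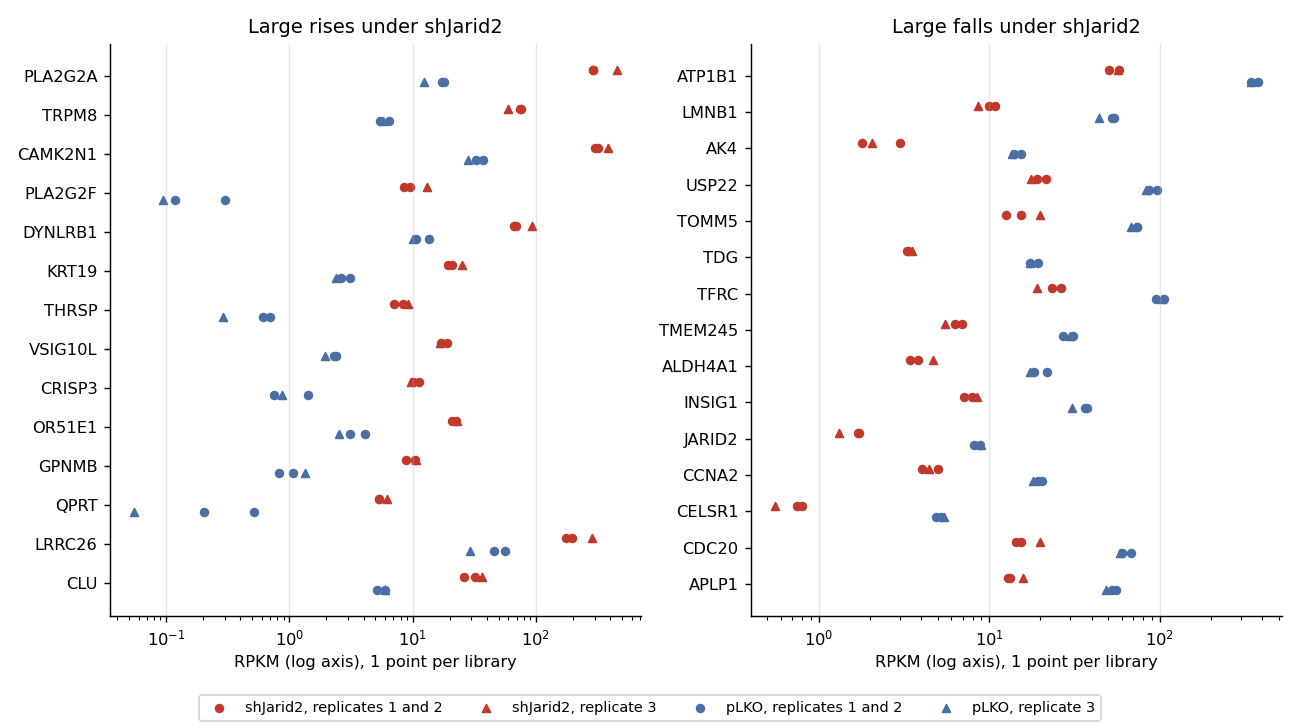
RPKM in each library (log axis) of genes with the largest rises and falls named in the text; red marks shJarid2, blue marks pLKO, and triangles mark replicate 3. By the rule that chose these genes, the 3 shJarid2 libraries lie on one side of the 3 pLKO libraries. The log2 changes run from 4.35 in PLA2G2A to -2.66 in ATP1B1.

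Cell division genes fell as a group. All 30 genes of a mitosis list passed as lower under shJarid2 and 0 as higher, where 21.2% of all genes tested were lower, and the median log2 change was -0.999 against -0.03 over all genes. CCNA2 read 5.01, 4.03 and 4.45 RPKM in shJarid2 and 19.4, 20.4 and 18.2 RPKM in pLKO. CDC20 read 15.3, 14.4 and 20.01 RPKM in shJarid2 and 67.9, 59.8 and 58.5 RPKM in pLKO. PLK1, the kinase that drives mitotic entry, read 12.3, 11.1 and 11.9 RPKM in shJarid2 and 39.5, 35.1 and 32.5 RPKM in pLKO (log2 change -1.52). The smallest fall of the list was -0.57, in AURKB, the kinase of the chromosomal passenger complex, and MKI67, the proliferation marker Ki-67, fell by 0.95. Without shJarid2 replicate 3 the count was again 30, where 27.9% of all genes were lower. It lay between 28 and 30 when each library was left out in turn.

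Of 38 DNA replication genes, 29 fell and 1 rose, with a median of -0.56, where 21.2% of all genes tested were lower and 18.7% higher. TYMS, the thymidylate synthase, fell by 1.06, GINS4 and GINS1 of the replicative helicase by 1.05 and 0.98, and ORC6 of the origin recognition complex by 1.00. SLBP, which binds the stem-loop of histone mRNAs, rose by 0.36. PCNA, the sliding clamp, fell by 0.53 and all of MCM2 to MCM7 fell, by 0.47 to 0.92. When shJarid2 replicate 3 was left out, 33 of the 38 were lower, where 27.9% of all genes were. The rise of SLBP was lost without any 1 of the pLKO libraries and without shJarid2 replicate 2.

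Other regulators of division moved less uniformly. Of 14 tested G1 cyclins and inhibitors, 2 rose and 5 fell (median -0.22), where 18.7% of all genes rose and 21.2% fell. The pocket protein gene RBL2 had 1.12 and cyclin D1 (CCND1) had -0.44, and the call of CCND1 was lost without pLKO replicate 1 or 2. CDKN2A and CDKN1C, which encode inhibitors of cyclin-dependent kinases, fell by 0.82 and 0.64. Of 27 p53 targets, 15 fell and 2 rose (median -0.34), where 21.2% of all genes fell. PLK3 fell by 1.55, ZMAT3, an RNA-binding p53 target, by 1.47 and FDXR, the ferredoxin reductase, by 0.97. CDKN1A, which encodes p21, had -0.21 and MDM2 had 0.12, and neither passed. The number of p53 targets that fell was 17 without shJarid2 replicate 3, and 9 without shJarid2 replicate 2 or without pLKO replicate 2. Over all 11871 genes, 2517 fell in the full fit, and 3311, 1853 and 1667 fell in these fits, in the same order.

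**Figure D3:**
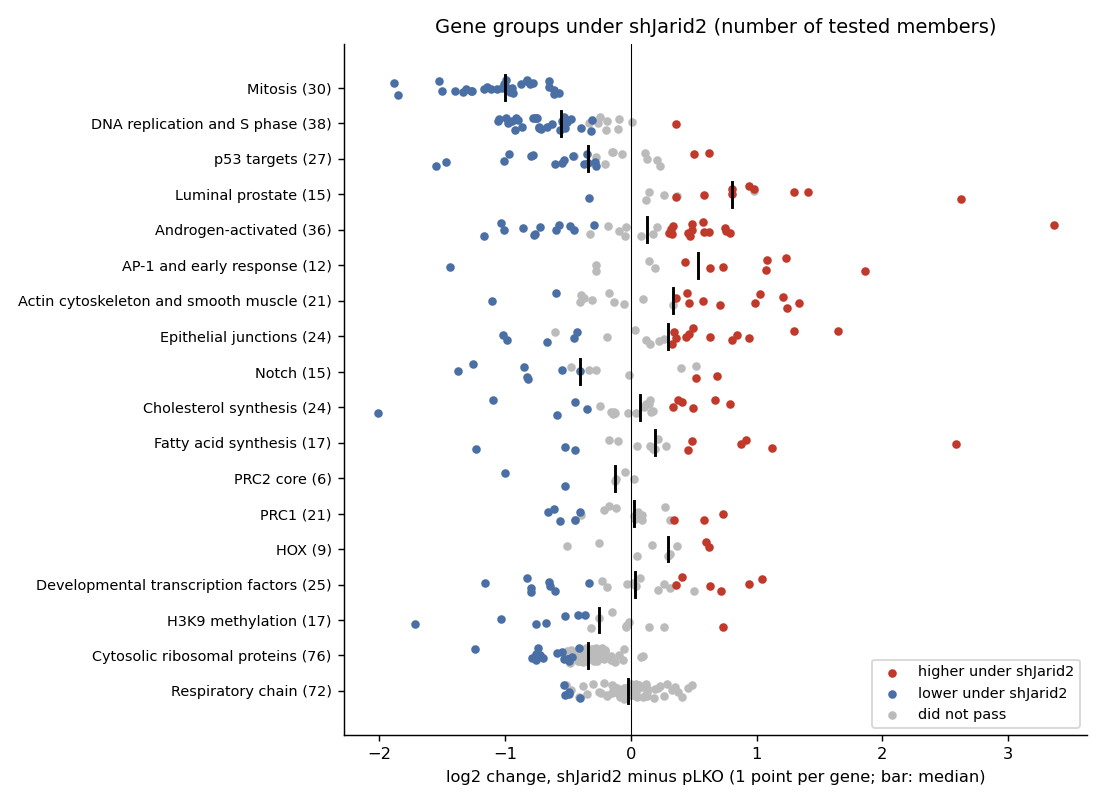
Log2 change, shJarid2 minus pLKO, of the tested members of 18 gene groups; red points passed as higher, blue points as lower, grey points did not pass, and black bars mark the medians. The mitosis genes lie between -1.89 and -0.57, and the ribosomal protein genes lie between -1.24 and 0.10 with a median of -0.34.

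Luminal prostate markers rose: 9 of 15 were higher and 1 lower, where 18.7% of all genes tested were higher, with a median of 0.80. ACPP, the prostatic acid phosphatase, read 33.7, 35.7 and 32.8 RPKM in shJarid2 and 11.8, 13.1 and 11.8 RPKM in pLKO (log2 change 1.41). CLDN4, a tight junction claudin, rose by 1.30, DPP4, a surface peptidase, by 0.98, and the simple keratins KRT8 and KRT18 by 0.94 and 0.80. FOXA1, the pioneer factor of luminal cells, fell by 0.34, and HOXB13 (0.37, adjusted p = 0.0525 in limma), MSMB (0.98) and CDH1 (0.12) did not pass. KRT19 of this list is also among the 15 largest rises. Without shJarid2 replicate 3, 11 rose and 1 fell, where 23.6% of all genes were higher. The fall of FOXA1 no longer passed when any of the other 5 libraries was left out.

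Genes known to be activated by androgen went both ways, 15 of 36 up and 12 down, with a median of 0.13. Of all genes tested, 18.7% were higher and 21.2% lower. KLK3, which encodes prostate-specific antigen, read 579, 534 and 730 RPKM in shJarid2 and 1160, 1129 and 1036 RPKM in pLKO (log2 change -0.86). The protease gene TMPRSS2 fell by 0.59, while FKBP5, a cochaperone of steroid receptors, rose by 0.75 and TRPM8 was the largest rise of the list. PPAP2A fell by 1.17, MED28 by 1.03 and ODC1, the first enzyme of polyamine synthesis, by 1.01. The number that rose was 15 without shJarid2 replicate 3. It was 9 without shJarid2 replicate 2, 9 without pLKO replicate 1 and 8 without pLKO replicate 2. Over all 11871 genes, 2220 rose in the full fit, and 2803, 1679, 1820 and 1627 rose in these fits, in the same order.

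Among steroid-conjugating enzymes, UGT2B15 and UGT2B17 rose by 1.23 and 0.98, and UGT2B28 and UGT2B11 fell by 1.56 and 0.85. These genes are near-identical neighbours, so their reads may have been shared between them.

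The cell type labels were checked with marker genes. The luminal genes KLK3, KLK2, TMPRSS2, HOXB13, FOLH1, KRT8 and KRT18 were at 77.2 RPKM or more in each of the 6 libraries. KRT5 and TP63 of basal cells, CD3E of T cells and DCN of fibroblasts were listed at 0 in all 6. The basal keratin KRT14 read 3.79, 3.41 and 4.86 RPKM in shJarid2 and 0.593, 0.384 and 0.105 RPKM in pLKO (log2 change 1.89). It passed the filter through shJarid2 alone, so that it had to be higher. ITGA6, the other tested basal gene of 9, fell by 0.85. The summed level of the 9 basal genes was 8.76 to 10.1 RPKM in shJarid2 and 9.61 to 9.94 RPKM in pLKO. SYT4, a synaptotagmin on the neuroendocrine list, rose by 1.42. It read 567, 570 and 504 RPKM in shJarid2 and 188, 231 and 194 RPKM in pLKO. CHGA, NCAM1 and SYP were at 0.748 RPKM or less in all 6, while ENO2 lay between 6.34 and 11.8 RPKM and did not pass. Of 8 immune genes, CD68 alone was tested (0.45, limma adjusted p = 0.0430, lost without shJarid2 replicate 3 at 0.0669), and their sum was 3.61 to 4.99 RPKM in shJarid2 and 2.39 to 3.32 RPKM in pLKO. COL1A1, the 1 tested gene of 7 on the fibroblast list, fell by 1.20. Whether cells of other types have a part in these values was not tested.

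Of 24 epithelial junction genes, 12 rose and 5 fell (median 0.30), where 18.7% of all genes rose and 21.2% fell. The claudin gene CLDN8 rose by 1.65 and occludin (OCLN) by 0.94, and CTNNB1, which encodes beta-catenin, fell by 0.66. Of 21 actin and smooth muscle genes, 10 rose and 2 fell (median 0.33), to be read against the same shares. TAGLN, or transgelin, rose by 1.34, CALD1, or caldesmon, by 1.21, ACTA2, smooth muscle actin, by 1.03 and TPM1, a tropomyosin, by 0.99, while the crosslinker FLNA fell by 1.10. Without shJarid2 replicate 3 the actin list had 10 higher and 6 lower genes, where 23.6% of all genes were higher and 27.9% lower. YAP and TEAD targets had 3 higher and 2 lower of 11 (median -0.19), and mesenchymal and matrix genes 1 and 2 of 6.

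Of 12 early response genes, 7 rose and 1 fell, with a median of 0.53, beside 18.7% and 21.2% of all genes. JUND, an AP-1 subunit, read 65.4, 69.2 and 92.3 RPKM in shJarid2 and 24.5, 19.9 and 16.0 RPKM in pLKO (log2 change 1.86). The phosphatase gene DUSP1 rose by 1.23, JUNB by 1.08 and ZFP36, which destabilises mRNAs, by 1.07. DUSP4, a phosphatase of MAP kinases, fell by 1.44. The count without shJarid2 replicate 3 was 7 higher and 2 lower, beside 23.6% and 27.9% of all genes.

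Of 15 Notch genes, 7 fell and 2 rose (median -0.41), where 21.2% of all genes fell and 18.7% rose. The ligand JAG1 fell by 1.38, the effector HES6 by 1.26, the glycosyltransferase LFNG by 0.85 and the DNA-binding partner RBPJ by 0.83. TGF-beta and SMAD response genes had 4 higher and 4 lower of 14, with ID3 at 2.07 and ID1 at 1.47, inhibitors of helix-loop-helix factors, and GDF11 at -0.61. WNT genes had 6 higher and 5 lower of 18, with RNF43 at 0.89 and WNT10B at -1.08.

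Subunits of PRC2 other than JARID2 were measured next. In the core, 2 of 6 genes fell and 0 rose, where 21.2% of all genes tested fell and 18.7% rose. With 6 genes, nothing is read from this count. RBBP4 read 8.26, 7.58 and 6.87 RPKM in shJarid2 and 16.0, 17.1 and 15.2 RPKM in pLKO (log2 change -0.998). EZH2, the methyltransferase, read 10.8, 10.1 and 10.6 RPKM in shJarid2 and 16.5, 16.1 and 14.1 RPKM in pLKO (-0.53, limma adjusted p = 0.00335). SUZ12 (-0.13), EED (-0.12), EZH1 (0.03) and RBBP7 (-0.05) did not pass. AEBP2, the partner of JARID2 in PRC2.2, had 0.18 and did not pass (limma adjusted p = 0.226). Of the 6 tested PRC2.1 genes, to be read against the same shares, MTF2 fell by 0.59 and C17orf96, also known as EPOP, by 0.84. PHF1 (0.26), LCOR (-0.33), C10orf12 (-0.46) and LCORL (0.14) did not pass.

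PRC1, the complex that binds the PRC2 mark and ubiquitinates histone H2A, had 3 higher and 5 lower of 21 genes, near the 18.7% and 21.2% of all genes. The catalytic subunit RNF2 fell by 0.61 and the chromodomain gene CBX8 by 0.66, and SCMH1 rose by 0.73 and PCGF5 by 0.58. Of the PRC1 genes, 5 were higher and 5 lower without shJarid2 replicate 3, where 23.6% and 27.9% of all genes were. Genes of H3K9 methylation and its readers had 7 lower and 1 higher of 17 (median -0.25), beside 21.2% lower and 18.7% higher over all genes. CBX1, or HP1 beta, read 9.21, 9.38 and 8.97 RPKM in shJarid2 and 33.8, 32.2 and 31.5 RPKM in pLKO (log2 change -1.72). DNMT1, the maintenance DNA methyltransferase, fell by 1.03 and SUV39H2 by 0.68, while WIZ, a partner of G9a, rose by 0.73. KDM6B, a demethylase of the PRC2 mark, rose by 0.68. Among the relatives of JARID2, KDM5C fell by 0.37 (limma adjusted p = 0.0153), and it no longer passed once pLKO replicate 1 or shJarid2 replicate 2 was left out. KDM5A, KDM5B and KDM5D did not pass.

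Gene families that PRC2 is known to silence are read against the 18.7% of all genes that rose and the 21.2% that fell. Of 39 HOX genes, 9 passed the filter, and 2 of them rose, HOXC6 by 0.62 and HOXC4 by 0.59. The other 30 stayed below 1 RPKM in at least 4 of the 6 libraries, and 11 of them were at 0 in all 6. Of 67 other developmental transcription factors, 25 were tested, 6 rose and 8 fell, with a median of 0.03. IRX3 rose by 1.04 and TFAP2C by 0.94, and SOX4 fell by 1.16. Of genes reported as silenced by EZH2 in prostate cancer, 8 of the 19 with values were tested, 2 rose and 3 fell. TIMP2, a protease inhibitor, rose by 0.64 and DAB2IP, a Ras GTPase-activating protein, fell by 0.68. A tested gene here had to reach 1 RPKM, so counts over these lists leave out members that were silent in both groups.

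Genes close to silent in one group were listed apart from the test. Of 13497 genes with a mean under 0.5 RPKM in pLKO, 11 reached 2 RPKM in all 3 shJarid2 libraries. The same count was 25 in shPALI1, 14 in shG9a and 8 in shsuz12. Among the 11 of shJarid2 were PLA2G2F, KRT14, QPRT, AMOTL1, which encodes an angiomotin of cell junctions, and C2orf54. AMOTL1 read 3.78, 3.92 and 2.16 RPKM in shJarid2 and 0.405, 0.370 and 0.496 RPKM in pLKO. C2orf54 read 6.03, 3.31 and 5.55 RPKM in shJarid2 and 0.331, 0.257 and 0.0957 RPKM in pLKO. It read 65.1, 72.0 and 71.0 RPKM in shG9a, 3.53, 4.15 and 4.48 in shsuz12, and 0.282, 0.540 and 0.379 in shPALI1. Of 13727 genes with a mean under 0.5 RPKM in shJarid2, 6 reached 2 RPKM in all 3 pLKO libraries, among them GSN, the actin-severing gelsolin, and PAK1, a kinase of the actin cytoskeleton. GSN read 0.308, 0.0976 and 0.507 RPKM in shJarid2 and 3.60, 3.33 and 2.54 RPKM in pLKO.

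Beside the metabolic and stress lists stand the shares over all genes, 18.7% higher and 21.2% lower. Cholesterol synthesis had 6 higher and 5 lower of 24, with INSIG1 at -2.01, HMGCS1, the enzyme before the rate-limiting step, at -1.10 and TM7SF2 at 0.78. Fatty acid synthesis had 6 higher and 3 lower of 17, with ME1, malic enzyme, at 1.13 and ELOVL6, an elongase, at -1.23. The unfolded protein response had 7 and 6 of 22, with DNAJB9 at 1.30 and MANF at -1.35. Hypoxia and glycolysis genes had 8 and 5 of 33, with BNIP3 at 0.89 and its relative BNIP3L at -1.61. ATF4 targets had 7 and 3 of 27, with NUPR1 at 1.65 and MTHFD2 at -1.22. Interferon-stimulated genes had 3 and 3 of 17, and MHC class I genes 3 and 2 of 10, with TAPBP, or tapasin, at 1.20. Imprinted genes had 4 and 3 of 14, with DIO3, which inactivates thyroid hormone, at 2.25 and SNRPN at 1.28. Germline genes had 3 and 2 of 12, histones 3 and 3 of 21, metallothionein and zinc genes 2 and 5 of 14, and protocadherins 0 and 3 of 5. Without shJarid2 replicate 3 some of these counts moved by over 1.5 times: the falls were 8 in cholesterol synthesis, 5 among ATF4 targets, 6 among interferon-stimulated genes and 4 among germline genes. In that fit 27.9% of all genes were lower.

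Replicate 3 of shJarid2 differed from its group by gene length. Among the 94.8% of tested genes with a transcript length in GENCODE v29, replicate 3 lay above the mean of replicates 1 and 2 by a median of 0.36 on the log2 scale in the shortest of 5 equal bins (47 to 1998 bases) and by -0.32 in the longest (5774 to 34526 bases). Against the pLKO mean, the medians of the shortest bin were -0.14, -0.10 and 0.20 in shJarid2 replicates 1, 2 and 3. Those of the longest bin were 0.08, 0.03 and -0.26. The pLKO group varied by length as well. Its replicate 3 differed from the mean of pLKO replicates 1 and 2 by a median of -0.14 in the shortest bin and -0.0017 in the longest. The long-transcript gene EGFR, the epidermal growth factor receptor, read 18.2, 14.7 and 4.99 RPKM in shJarid2 and 7.94, 8.55 and 8.80 RPKM in pLKO. ZBED6 read 9.20, 6.85 and 1.01 RPKM in shJarid2 and 9.19, 9.89 and 8.20 RPKM in pLKO. In the other direction, RPPH1, the RNA of ribonuclease P, read 3.71, 8.57 and 32.5 RPKM in shJarid2 and 34.6, 13.6 and 4.03 RPKM in pLKO, so that it varied in both groups.

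**Figure D4:**
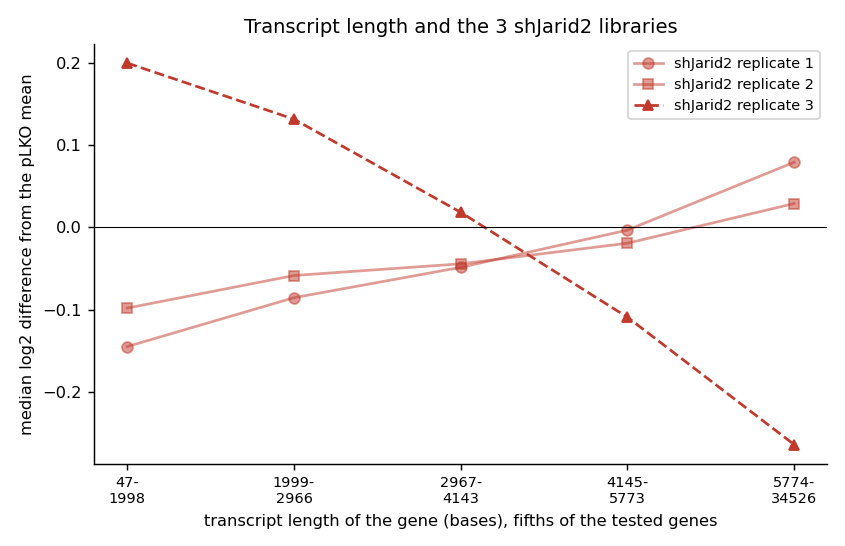
Median log2 difference of each shJarid2 library from the mean of pLKO, for 5 equal bins of the tested genes by transcript length in bases. Replicate 3 has 0.20 in the shortest bin and -0.26 in the longest, and replicates 1 and 2 run the other way, with -0.14 and -0.10 in the shortest bin.

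The lists of short genes moved with this library. Cytosolic ribosomal protein genes fell in 15 of 76 cases (median -0.34, 0 higher), near the 21.2% of all genes, and 70 of the 76 fell without shJarid2 replicate 3, where 27.9% of all genes did. Their median difference from pLKO was -0.55 and -0.51 in replicates 1 and 2 and 0.04 in replicate 3. RPL15 was lower in all 3, at 30.7, 31.1 and 43.8 RPKM in shJarid2 and 82.0, 89.4 and 79.1 RPKM in pLKO (log2 change -1.24). The count was 8 without pLKO replicate 1, 6 without pLKO replicate 2 and 8 without pLKO replicate 3. It was 7 and 6 without shJarid2 replicates 1 and 2, and 49 after a correction for length. Over all 11871 genes, the falls numbered 1829, 1667 and 1873 without pLKO replicates 1, 2 and 3. They numbered 2186 and 1853 without shJarid2 replicates 1 and 2, and 2739 of 11251 genes after the correction. Respiratory chain genes fell in 5 of 72 cases, where 21.2% of all genes did, and in 26 without shJarid2 replicate 3, where 27.9% did. Their medians were -0.23, -0.15 and 0.32 in the 3 shJarid2 libraries. Among genes of hairpin processing, DICER1, the nuclease that makes small RNAs, read 30.0, 28.3 and 11.9 RPKM in shJarid2 and 9.90, 11.7 and 12.04 RPKM in pLKO. It passed at a log2 change of 0.90 (limma adjusted p = 0.0421), and 1 of its 3 shJarid2 libraries lay inside the range of pLKO. This call was lost in 5 of the 6 fits that left out a library.

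The hairpin against SUZ12, a core subunit of the same complex, gives a comparison that does not use pLKO. Between shJarid2 and shsuz12, 3602 of 12024 genes were higher and 2621 lower in shJarid2 (30.0% and 21.8%, together 51.8%). Differences of at least 2-fold were found in 607 higher (5.05%) and 484 lower genes (4.03%), and the groups were apart in 62.4% of genes. SUZ12 read 20.5, 19.7 and 15.1 RPKM in shJarid2 and 2.71, 2.59 and 2.28 RPKM in shsuz12, and JARID2 was lower in shJarid2 by 2.36. S1PR3, a receptor for sphingosine 1-phosphate, read 29.9, 29.7 and 25.1 RPKM in shJarid2 and 1.41, 1.601 and 1.55 RPKM in shsuz12 (log2 difference 3.53 ± 0.10 SE, limma adjusted p = 1.01e-05). It was followed by PLA2G2F (3.11), the natriuretic peptide gene NPPC (3.09), the adaptor CD2AP (3.02), the ferritin heavy chain FTH1 (2.80) and the methyltransferase SETD7 (2.72). FTH1 has many processed copies in the genome, and its reads may be shared with them. PLA2G2F was under 1 RPKM in each shsuz12 library and passed the filter through shJarid2 alone, so that it had to be higher.

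In the other direction, the intestinal disaccharidase gene SI read 3.23, 3.01 and 2.03 RPKM in shJarid2 and 43.0, 43.1 and 41.2 RPKM in shsuz12 (log2 difference -3.55). The transthyretin gene TTR had -2.95, TP53I3 -2.65, the alpha-tubulin gene TUBA1A -2.597, ALDH4A1 -2.57 and TENM1 -2.54. TUBA1A has near-identical relatives, so its reads are uncertain. TTR and TUBA1A were under 1 RPKM in each shJarid2 library and passed the filter through shsuz12 alone, so that they had to be lower. Under a common sum of RPKM the split of this comparison was 2591 higher and 3339 lower, with a shift of the median by -0.14, so that which direction holds more genes depended on the scaling.

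Of the large changes against pLKO, some did not distinguish the hairpins. TFRC had 26.5, 23.5 and 19.2 RPKM in shJarid2 and 25.3, 23.8 and 23.0 RPKM in shsuz12 (log2 difference -0.07, limma adjusted p = 0.668), and CDC20 had a difference of 0.00 (adjusted p = 0.991). CRISP3 and OR51E1 had differences of 0.16 and 0.23 that did not pass. Of the 30 mitosis genes, 11 were higher and 1 lower in shJarid2 than in shsuz12, with a median of 0.20, where 30.0% of all genes were higher, 21.8% lower and the median was 0.06. With a common sum of RPKM, 7 were higher and 1 lower and the median was 0.07. Over all 12024 genes that setting gave 2591 higher and 3339 lower, with a median of -0.07. Of 38 replication genes, 22 were higher and 2 lower, with a median of 0.35. With a common sum 14 were higher and 2 lower, with a median of 0.20, beside the same counts over all genes. PLA2G2A, TRPM8, CAMK2N1, ATP1B1 and USP22 passed in the direction of their change against pLKO, with differences of 1.89, 2.64, 1.54, -1.96 and -2.01.

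**Figure D5:**
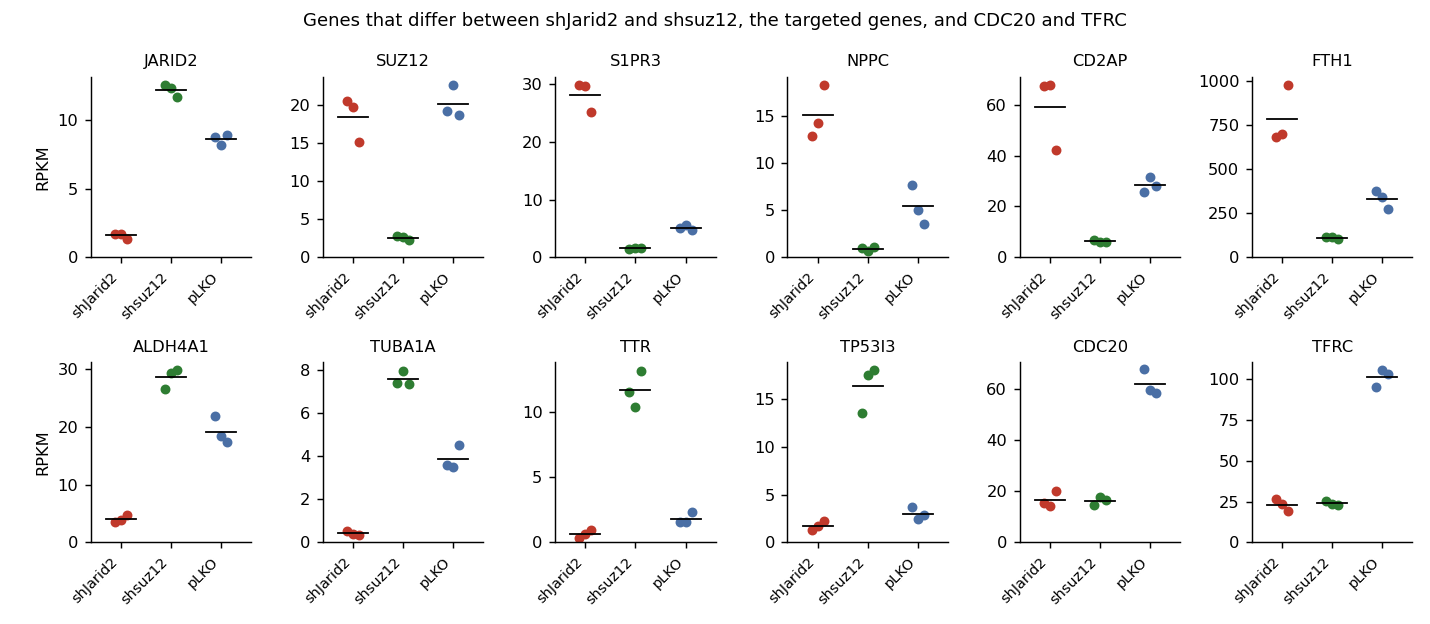
RPKM in each library of shJarid2 (red), shsuz12 (green) and pLKO (blue), with the mean of each group as a line, for the targeted genes, for genes with large differences between both hairpins, and for CDC20 and TFRC. S1PR3 lies at 25.1 to 29.9 RPKM in shJarid2, above both other groups, and CDC20 and TFRC are low under both hairpins.

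Against the mean of shPALI1, shG9a and shsuz12, 4240 of 12605 genes were higher in shJarid2 (33.6%) and 3662 lower (29.1%), together 62.7%. At least 2-fold were 460 higher (3.65%) and 318 lower (2.52%), and shJarid2 was apart from all 9 other libraries in 28.6% of genes. Of the 2220 genes that rose against pLKO, 1892 also passed here in the same direction, and so did 1824 of the 2517 that fell. The others either did not pass here or passed in the other direction. Against shsuz12 alone, 1469 and 1223 passed in the same direction. These comparisons share the shJarid2 libraries, so that the counts are given as values without a test of overlap. PLA2G2F averaged 10.4 RPKM in shJarid2, against 0.0678 in shPALI1, 0.896 in shG9a and 0.304 in shsuz12 (log2 difference 3.03). PLA2G2A averaged 347 RPKM in shJarid2 and 18.8, 46.1 and 91.0 RPKM in shPALI1, shG9a and shsuz12 (2.95). THRSP, QPRT and KRT14 were higher by 2.46, 2.42 and 2.12, and USP22 and CBX1 lower by 2.17 and 1.69. PLA2G2F, QPRT and KRT14 would not have passed the filter here without the shJarid2 libraries, so nothing is read from their being higher. CLU had a difference of 0.17 from the other hairpins that did not pass (limma adjusted p = 0.251). The 30 mitosis genes had 3 higher and 19 lower with a median of -0.40 (1 and 23 with a common sum), and the luminal list had 10 higher and 2 lower of 15 with a median of 0.75. A common sum of RPKM turned the split over all genes to 3333 higher and 4481 lower.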

How the data were processed

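RNA of 15 LNCaP libraries in 5 groups of 3 was sequenced, per the labels. The values are RPKM per gene in 1 table deposited by the authors, which has 26443 genes with values. STAR and hg38 are named in the submitters' processing notes, with the version, counter, annotation and strand setting not given in the sources used here. RPKM are not counts, so log2(RPKM + 1) was fitted with limma 3.58.1 in R 4.3.3 (empirical Bayes with trend, two-sided), with adjusted p under 0.05. The comparison with pLKO used 6 libraries, and those with the other hairpins used 6 and 12. Depth came from the low values of small RNA genes, of which 92.8% to 94.8% in the 6 libraries lay within 0.05 of a whole read, and a gene of 2 kb at 1 RPKM rests on 23.3 to 31.9 reads. Named genes were the 15 largest changes each way among genes that passed. Their groups could not overlap, and the higher group had a mean of at least 2 RPKM. Up to 4 genes of smallest p per list were named as well, and a few others were chosen after their values were seen. The members and the lists were chosen with earlier results of these data known. Alternatives were other pseudocounts, filters, scalings and weights, a replicate block, each library left out, and a length correction that was added after the data were seen. Fits were tested on simulated data. Some named genes are not reported here.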

Additional observations from a re-analysis of the deposited data

Results flagged for a closer look

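In 9 genes the change under shJarid2 ran opposite to the change under shsuz12, each against pLKO, and the difference between both hairpins, tested in limma without pLKO, passed. The changes against pLKO share the pLKO libraries. S1PR3 had a log2 change of 2.26 under shJarid2 and -1.27 under shsuz12, a difference of 3.53. NPPC had 1.37 and -1.72, a difference of 3.09. CD2AP had 1.01 under shJarid2 and -2.01 under shsuz12 (3.02). FTH1, whose reads may be shared with its copies, had 1.23 and -1.56 (2.80). TTR had -0.77 under shJarid2 and 2.18 under shsuz12 (-2.95). TP53I3 had -0.53 and 2.12 (-2.65), and its change under shJarid2 (limma adjusted p = 0.0314) was kept in 2 of the 6 fits that left out a library. TUBA1A had -1.78 under shJarid2 and 0.82 under shsuz12 (-2.60). ALDH4A1 had -2.02 and 0.56 (-2.57). JARID2, the target of the first hairpin, had -1.90 and 0.45 (-2.36). Apart from JARID2, the genes come from those with the largest changes or differences, so that passing was fixed by that choice, and 51.8% of all genes passed in this comparison.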

How the results depend on the processing

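Against pLKO the counts of 2220 higher and 2517 lower genes were 3831 and 4462 with array weights, an estimate that did not converge, and the same setting gave 4064 lower genes against shsuz12 (2621 without it). Leaving out 1 library gave 1522 to 2803 higher and 1667 to 3311 lower genes against pLKO, and 1997 to 3199 lower against shsuz12. The scalings and the length correction moved the higher share of calls against pLKO between 45.2% and 50.9%. A common sum gave 2591 higher and 3339 lower against shsuz12, and 3333 and 4481 against the other hairpins together. Directions turned in genes close to 0 that did not pass. EZH1 had -0.13 with array weights (-0.065 to 0.11 with 1 library left out) and ENO2 had -0.35 (-0.18 to 0.22). KDM5D had 0.00503 with median ratio scaling, 0.013 with quantile normalization, 0.041 with array weights and 0.012 with the length correction (-0.054 to 0.013 with 1 library left out). PCDHGB5 had 0.011, 0.10, 0.046 and 0.032 in the same order (-0.081 to 0.059). With 1 library left out, SUZ12 lay between -0.21 and 0.00030, LCORL between -0.000785 and 0.32 and KDM5B between -0.25 and 0.0045. The cause was not tested. The scalings of the lists against the other hairpins were chosen after seeing the data. Of 86 counts over gene lists, 12 to 24 moved by over 1.5 times when 1 library was left out. Deviations of same-numbered shJarid2 libraries correlated by -0.31, 0.14 and -0.29 with pLKO, 0.36, -0.17 and 0.23 with shsuz12, -0.31, 0.11 and -0.28 with shPALI1, and 0.10, -0.03 and 0.04 with shG9a. In no group were all 3 over 0.1. Deviations within a group depend on each other, so these values cannot decide whether the numbers pair the samples. With a replicate block the counts were 1653 higher and 1865 lower against pLKO. They were 3802 and 2741 against shsuz12, and 4190 and 3635 against the other hairpins together.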
